A study of Mus musculus with 6 samples.

Results

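Interferon-linked PARP genes were examined in B cells sorted from mouse colons, together with Dtx3l, the ubiquitin ligase partner of Parp9, and with Parp1 and Parp2 as constitutive relatives. The 9 members were chosen by gene symbol (Parp1, Parp2, Parp8, Parp9, Parp10, Parp11, Parp12, Parp14 and Dtx3l) among 20591 symbols, and 9 of 9 were found. The libraries came from mice given lenvatinib, an inhibitor of receptor tyrosine kinases such as those for VEGF and FGF, or given DMSO, its solvent, with 3 libraries in each group. By its title the study concerns colitis and the trafficking of B cells, and the labels give no strain, age, genotype, dose, time or inflammatory state, and call the libraries biological replicates without saying whether each was a separate animal. If they were not, the p-values reflect technical spread only.

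PARP enzymes transfer ADP-ribose from NAD to proteins and nucleic acids. Parp1 and Parp2 bind broken DNA and build chains of ADP-ribose that recruit repair factors. Most of the other members attach single ADP-ribose units. Several of them are induced by interferon through a transcription factor complex that includes Stat2 and Irf9, and act in antiviral defence, while Parp14 is also known as a cofactor of Stat6 in the interleukin 4 response of B cells.

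Parp14, Parp9 and Dtx3l were lower in the lenvatinib libraries, by 32.6, 26.0 and 26.5 percent of the DMSO mean, and Parp2 was lower by 12.4 percent. These 4 of 8 tested members had a limma adjusted p below the threshold of 0.05. No member passed in the other direction. Of all 9937 tested genes 18.7 percent passed in either direction, 1038 as higher and 816, or 8.21 percent, as lower. The members other than Parp1 and Parp2 are called interferon-linked here, a label that was not tested for each gene. Among the interferon-linked members 3 of 6 tested passed as lower, with a median log2 change of −0.35, against 0.01 over all tested genes. Parp1 stayed close to its DMSO level, and Parp11 and Parp12 overlapped between the groups. Of the 8 tested members 6 had all lenvatinib libraries below all DMSO libraries, as had 18.2 percent of all tested genes. All 8 exceeded the filter, a scaled FPKM of 1, in each of the 6 libraries, so none was tested through 1 group alone. When the libraries were scaled instead to their B cell identity genes, 1 interferon-linked member, Parp14, passed as lower, with 169 genes, or 1.7 percent of all tested, passing as lower among 5094 that passed in either direction on that scale.

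**Figure D1:**
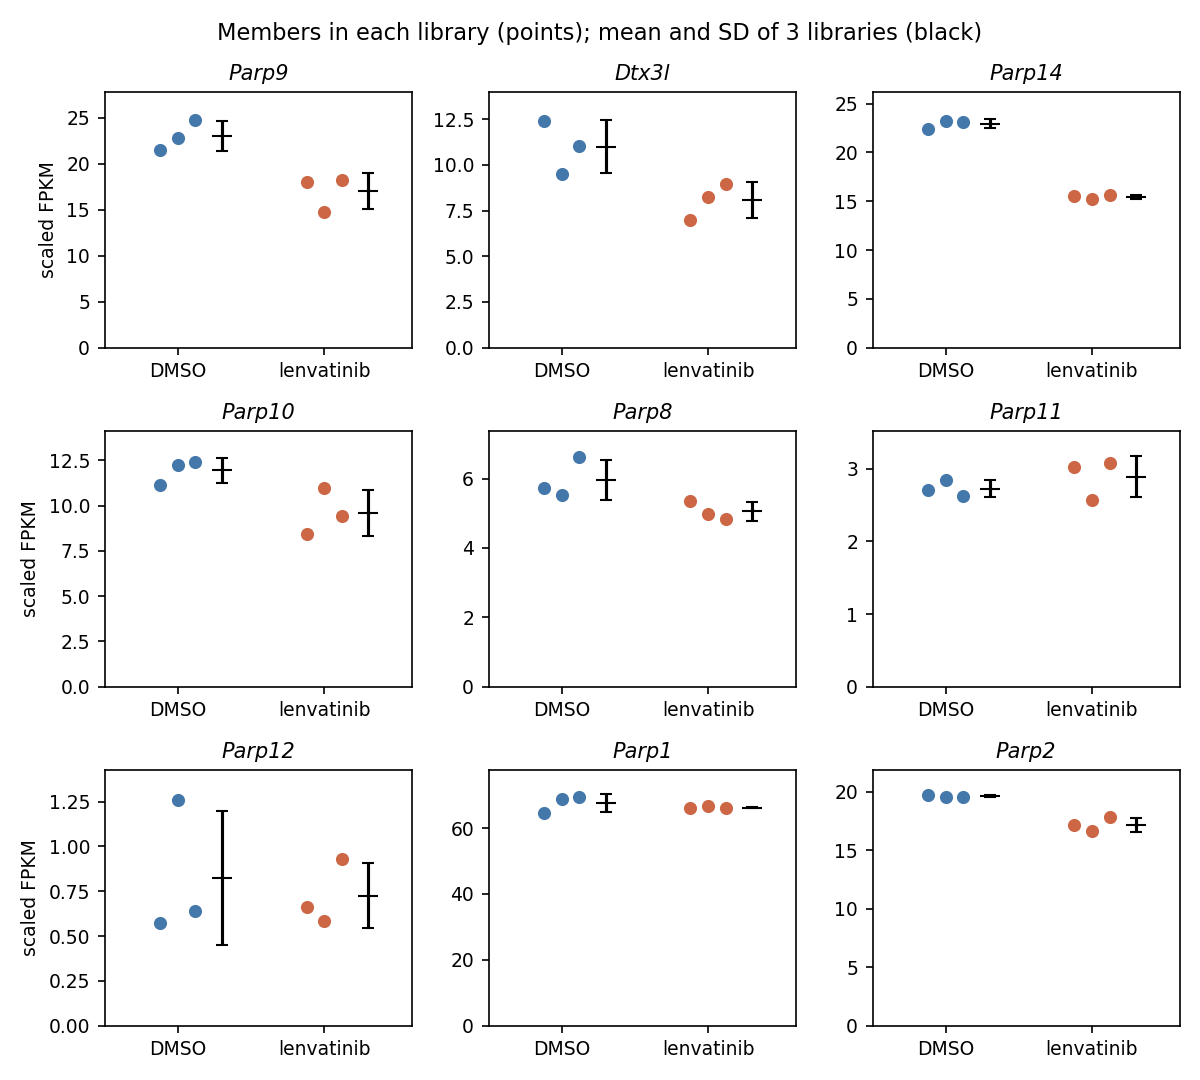
Scaled FPKM of each member in every library, on a linear axis that starts at 0 in each panel. Points are libraries, and the black mark is the mean with the SD of 3 libraries. Parp14 sat between 22.4 and 23.3 in DMSO and between 15.2 and 15.6 in lenvatinib libraries, while Parp1, Parp11 and Parp12 overlapped.

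Levels are given as scaled FPKM, fragments normalised to gene length and library total, divided by a factor per library, which allows a comparison between genes. In DMSO libraries Parp1 stood highest at 67.6 ± 2.70 (SD, n = 3). Parp9 at 23.0 ± 1.66 and Parp14 at 22.9 ± 0.459 came next and did not differ beyond their spread. Parp2 followed at 19.6 ± 0.0785. Parp10 at 11.9 ± 0.681 and Dtx3l at 11.0 ± 1.46 overlapped with each other. Parp8 at 5.96 ± 0.574, Parp11 at 2.73 ± 0.112 and Parp12 at 0.823 ± 0.376 completed the order, each separate from its neighbours. In lenvatinib libraries Parp1 was again first at 66.3 ± 0.279, but Parp2 at 17.2 ± 0.594 came second and overlapped with Parp9 at 17.0 ± 1.95, which in turn overlapped with Parp14 at 15.5 ± 0.192. The lower end of the order, from Parp10 to Parp12, was the same in both groups. The depth behind these values was between 26635279 and 31655500 reads per library, and a member held from 49 reads, for Parp12, to 7835 reads, for Parp1, in a library.

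Parp9 and Dtx3l encode partners in 1 complex. Parp9 binds ADP-ribose through its macrodomains and has little catalytic activity by itself, and Dtx3l is an E3 ubiquitin ligase of the Deltex family. Parp9 measured 21.5, 22.8 and 24.8 scaled FPKM in DMSO replicates 1, 2 and 3, and 18.0, 14.8 and 18.3 in lenvatinib replicates 1, 2 and 3. The highest lenvatinib library lay below the lowest DMSO library, and lenvatinib replicate 2 was the lowest of the 6. Parp9 fell by 0.42 on the log2 scale (SE 0.0866, 95% interval −0.61 to −0.22, limma adjusted p = 0.00985). It lost its call only when libraries were scaled to B cell identity genes, with a change of −0.18 (limma adjusted p = 0.106).

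Dtx3l measured 12.4, 9.51 and 11.0 scaled FPKM in DMSO replicates 1, 2 and 3, and 7.01, 8.26 and 8.95 in lenvatinib replicates 1, 2 and 3. The groups did not overlap, but lenvatinib replicate 3 and DMSO replicate 2 were close. Dtx3l fell by 0.40 on the log2 scale (SE 0.109, 95% interval −0.65 to −0.15, limma adjusted p = 0.0327). Its spread between replicates, 13.3 percent of the mean in DMSO and 12.2 percent in lenvatinib libraries, was above the 2.46 and 2.85 percent that counting of its reads gives. The call did not hold without DMSO replicate 1 (limma adjusted p = 0.101), DMSO replicate 3 (0.0842), lenvatinib replicate 1 (0.102) or lenvatinib replicate 2 (0.0731), nor without a filter on low values (0.109), without trend and robust moderation (0.0689) or when scaled to B cell identity genes (0.188). With limma-voom on the reads recovered from the FPKM the adjusted p was 9.45e-05.

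The level of Parp9 relative to Dtx3l did not separate the groups. The ratio of their scaled FPKM was 1.73, 2.40 and 2.25 in DMSO replicates 1, 2 and 3, and 2.57, 1.79 and 2.04 in lenvatinib replicates 1, 2 and 3. The mean log2 difference between the genes was 1.01 ± 0.231 in DMSO and 0.99 ± 0.242 in lenvatinib libraries (SD, n = 3, two-sided exact permutation p = 1). The genes overlap at their starts on opposite strands, with 367 exon bases in common in the GENCODE M21 annotation of GRCm38, which are 10.3 percent of the exon bases of Parp9 and 6.41 percent of those of Dtx3l. The use of strand in counting was not given in the sources used here, so reads from the shared stretch may not have been told apart.

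The 250 bases before the RefSeq start of Dtx3l are shown because they lie in this shared start region, together with those of Parp2, the other called member with an entry, and of Parp11, whose window held both motifs searched. RefSeq windows on GRCm38.p6 were matched for 6 of 9 members, with 7 windows in all, of which 2 belong to Parp11. No window was matched for Parp9, Parp10 and Parp14. The windows were searched on both strands for 2 copies of GAAA with 2 bases of any kind between them, the core of the interferon-stimulated response element, and for TTCNNNGAA, the core of the gamma-activated site. Capitals mark every GAAA or its reverse complement TTTC, the repeat unit of the first motif.
Dtx3l, chr16:35939028-35939277, minus strand: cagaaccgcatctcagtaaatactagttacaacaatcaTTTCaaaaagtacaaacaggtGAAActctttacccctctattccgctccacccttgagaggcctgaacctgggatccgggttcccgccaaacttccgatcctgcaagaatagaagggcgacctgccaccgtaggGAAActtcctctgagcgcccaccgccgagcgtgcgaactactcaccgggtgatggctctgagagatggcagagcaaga
Parp2, chr14:50807666-50807915, plus strand: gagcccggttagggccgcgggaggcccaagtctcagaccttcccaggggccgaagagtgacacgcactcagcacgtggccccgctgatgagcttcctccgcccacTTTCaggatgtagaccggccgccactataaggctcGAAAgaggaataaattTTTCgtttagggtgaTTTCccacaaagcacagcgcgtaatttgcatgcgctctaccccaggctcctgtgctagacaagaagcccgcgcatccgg
Parp11, chr6:127446590-127446839, plus strand: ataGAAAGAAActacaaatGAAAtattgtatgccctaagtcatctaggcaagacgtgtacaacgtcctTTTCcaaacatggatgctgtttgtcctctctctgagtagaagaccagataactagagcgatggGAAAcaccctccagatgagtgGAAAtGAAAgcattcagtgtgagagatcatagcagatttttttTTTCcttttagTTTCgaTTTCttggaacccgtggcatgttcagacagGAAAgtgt
In GENCODE M21, 124 bases of the Dtx3l window are exonic in Dtx3l itself, whose annotated start lies further upstream there, and 33 are exonic in Parp9 on the other strand. The Parp2 window holds 75 exonic bases of Parp2 and 102 of Rpph1, the RNA of ribonuclease P, on the other strand. Of the 7 windows 1 held the first motif, that of Parp11 as TTTCGATTTC starting 44 bases before the start, and the same window held the second motif as TTCTTGGAA starting 37 bases before the start, which overlaps the first. The second window of Parp11 held neither. Over 32851 windows of this length 2.98 percent held the first motif, 7.02 percent the second and 86.4 percent at least 1 GAAA. The Dtx3l and Parp2 windows held neither motif, with 3 and 4 matches to GAAA or TTTC, and a match or its lack describes these letters only.

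Parp14, a macrodomain PARP and Stat6 cofactor, had the lowest p of the members. It measured 22.4, 23.3 and 23.2 scaled FPKM in DMSO replicates 1, 2 and 3, and 15.6, 15.2 and 15.6 in lenvatinib replicates 1, 2 and 3. The gap between the groups was far wider than the spread within either. Parp14 fell by 0.54 on the log2 scale (SE 0.0498, 95% interval −0.65 to −0.43, limma adjusted p = 9.86e-05). Of 9937 tested genes 105 had a lower log2 change than Parp14, 208 than Parp9 and 244 than Dtx3l. The call of Parp14 held in 17 of 17 alternatives, with log2 changes from −0.57 to −0.30 and limma adjusted p-values of at most 0.00144.

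Parp10, Parp8, Parp11 and Parp12, which attach single ADP-ribose units, did not pass the limma test or were too low to be tested. Parp10 measured 11.2, 12.2 and 12.4 scaled FPKM in DMSO replicates 1, 2 and 3, and 8.41, 11.0 and 9.41 in lenvatinib replicates 1, 2 and 3. The groups did not overlap, but lenvatinib replicate 2 came close to the DMSO libraries. Its log2 change was −0.30 (SE 0.093, 95% interval −0.50 to −0.09, limma adjusted p = 0.0561), just outside the threshold, and without lenvatinib replicate 2 it was −0.39 (limma adjusted p = 0.0215). Parp10 also passed when genes with a mean below 5 were left out (0.0437), when scaled to the sum of FPKM (0.0443), with quantile normalization (0.0471) and in limma-voom (adjusted p = 0.00663).

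Parp8 measured 5.73, 5.53 and 6.61 scaled FPKM in DMSO replicates 1, 2 and 3, and 5.37, 4.97 and 4.83 in lenvatinib replicates 1, 2 and 3. The groups were separate by a narrow margin. Its log2 change was −0.20 (95% interval −0.40 to 0.00, limma adjusted p = 0.159), and it passed in limma-voom alone (adjusted p = 0.0273).

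Parp11, an enzyme known to act at the nuclear envelope and in the control of the type I interferon receptor, measured 2.71, 2.85 and 2.63 scaled FPKM in DMSO replicates 1, 2 and 3, and 3.02, 2.57 and 3.08 in lenvatinib replicates 1, 2 and 3. The groups overlapped, with lenvatinib replicate 2 the lowest of the 6 libraries. Its log2 change was 0.06 (95% interval −0.16 to 0.28, limma adjusted p = 0.725), an interval that leaves out a fall as large as that of Parp14. Of the windows searched, the one with the interferon motif belongs to this gene, but Parp9, Parp10 and Parp14 had no window to search. A link between motif and level was not tested.

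Parp12, a zinc finger PARP with antiviral activity, was the least expressed member. It rested on 49, 126 and 62 reads in DMSO replicates 1, 2 and 3, and on 68, 55 and 83 reads in lenvatinib replicates 1, 2 and 3. The corresponding scaled FPKM were 0.575, 1.26 and 0.640 in DMSO, and 0.661, 0.585 and 0.929 in lenvatinib libraries. DMSO replicate 2 stood above the other 5 libraries, and the groups overlapped (two-sided exact permutation p = 0.9). Parp12 did not reach a scaled FPKM of 1 in 3 libraries and was not tested. Without a filter its log2 change was −0.07 with a 95% interval of −0.46 to 0.33, which holds changes the size of those of Parp9 and Dtx3l. Its spread between replicates was 45.6 percent of the mean in DMSO and 24.9 percent in lenvatinib libraries, against 11.3 and 12.1 percent from counting.

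The constitutive relatives differed from each other. Parp1, the main enzyme of chain formation at DNA breaks, measured 64.5, 69.0 and 69.3 scaled FPKM in DMSO replicates 1, 2 and 3, and 66.1, 66.6 and 66.0 in lenvatinib replicates 1, 2 and 3. The lenvatinib libraries lay within the range of the DMSO libraries. Its log2 change was −0.03 (SE 0.0393, 95% interval −0.12 to 0.06, limma adjusted p = 0.676).

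Parp2, which acts beside Parp1 in the repair of single-strand breaks, measured 19.7, 19.6 and 19.6 scaled FPKM in DMSO replicates 1, 2 and 3, and 17.1, 16.6 and 17.8 in lenvatinib replicates 1, 2 and 3. Every lenvatinib library lay below the tightly grouped DMSO libraries. Parp2 fell by 0.18 on the log2 scale (SE 0.0519, 95% interval −0.30 to −0.07, limma adjusted p = 0.0384), and its change was 0.05 when scaled to B cell identity genes. The call was lost without any 1 of the 6 libraries, with limma adjusted p-values from 0.0504 without lenvatinib replicate 3 to 0.11 without lenvatinib replicate 2, with FPKM as deposited (0.0518), without a filter on low values (0.067) and without trend and robust moderation (0.0556).

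Relative to Parp1 in the same library, Parp14, Parp9, Dtx3l, Parp10 and Parp2 were separate between the groups. Library scaling moves this measure little, except for members at low levels, through the 1 added before the log. The log2 difference between Parp14 and Parp1 was −1.48, −1.53 and −1.54 in DMSO replicates 1, 2 and 3, and −2.02, −2.06 and −2.01 in lenvatinib replicates 1, 2 and 3. This is a shift of −0.51, against SDs of 0.0303 within the DMSO and 0.0229 within the lenvatinib libraries. The shifts were −0.39 for Parp9, −0.37 for Dtx3l, −0.27 for Parp10 and −0.15 for Parp2. Each of these 5 had the smallest two-sided exact permutation p that 3 libraries against 3 allow, 0.1, with an adjusted p of 0.16 over the 8 ratios, so this test cannot pass 0.05. Parp8, with a shift of −0.17 (exact permutation p = 0.2), Parp11 with 0.09 (p = 0.3) and Parp12 with −0.04 (p = 0.9) overlapped. Scaled to B cell identity genes, their shifts were −0.20 (exact permutation p = 0.1), 0.03 (p = 0.7) and −0.18 (p = 0.4). The ratio to Parp1 does not hold the B cell signal constant. Parp1 itself changed by 0.22 when scaled to B cell identity genes, whose median log2 change was −0.24 under the main scaling.

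**Figure D2:**
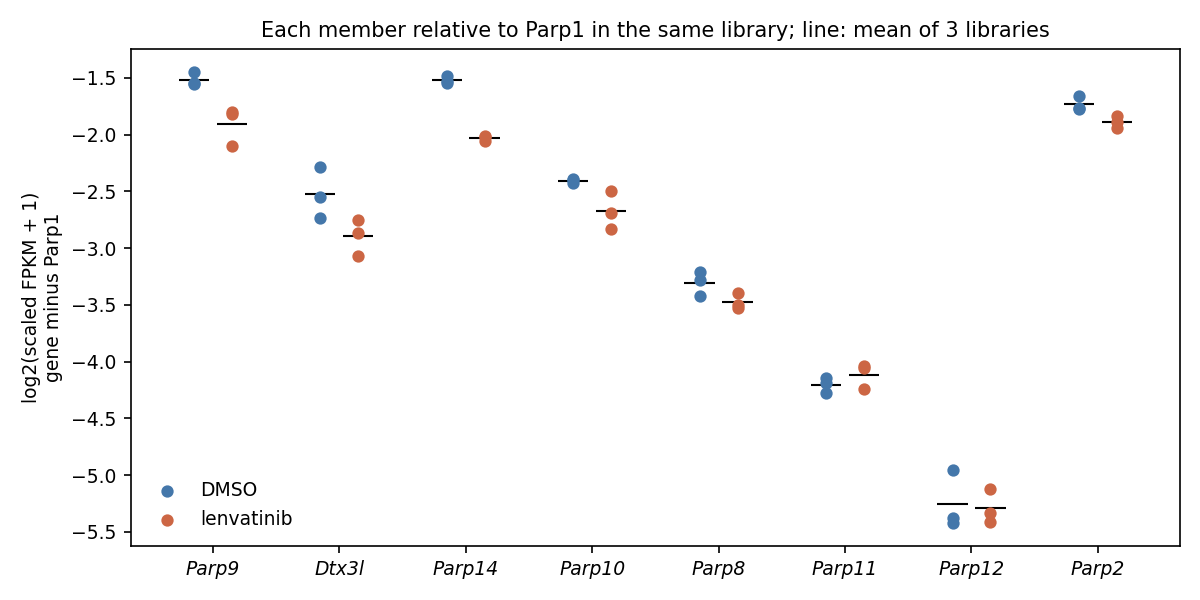
Difference in log2(scaled FPKM + 1) between each member and Parp1 within each library. Points are libraries and lines are means of 3. Parp14 shifted from a mean of −1.52 in DMSO to −2.03 in lenvatinib libraries without overlap, and the points of Parp8, Parp11 and Parp12 overlapped.

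Markers of other cell types moved with these results. The mean log2(scaled FPKM + 1) of 19 B cell identity genes ranged from 7.16 to 7.17 in DMSO and from 6.93 to 6.95 in lenvatinib libraries, and 15 of 19 tested passed as lower. The mean of 13 T cell genes ranged from 1.86 to 1.91 and from 2.91 to 2.97, that of 10 natural killer and innate lymphoid genes from 1.66 to 1.74 and from 3.15 to 3.19, and that of 12 colon epithelial genes from 0.894 to 0.913 and from 2.17 to 2.34. In these 3 lists 9 of 12, 8 of 8 and 8 of 8 tested genes passed as higher. Macrophage and dendritic cell genes had 2 of 9 higher, with ranges from 2.37 to 2.38 and from 2.44 to 2.57, while plasma cell and plasmacytoid dendritic cell means overlapped. Calls in these last lists went both ways. Of 7 tested plasma cell genes 1 passed as higher and 1 as lower, and of 7 plasmacytoid dendritic cell genes 1 and 2. No marker in these lists was at 0 in every library. In bulk libraries fewer cells of a type and less RNA per cell cannot be told apart, and the part of other cells in the members' changes was not tested.

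Scaling the libraries to their B cell identity genes shows the members against the B cell signal. It raised the median change of all tested genes from 0.01 to 0.23. The 19 B cell identity genes did not move together on their own scale, where 5 passed as higher and 4 as lower. Their changes there ran from −0.28 for Ralgps2 to 0.30 for Blk. On that scale Parp14 changed by −0.30 (SE 0.051, 95% interval −0.42 to −0.19, limma adjusted p = 0.00122). Parp9 and Dtx3l changed by −0.18 each (95% intervals −0.37 to 0.01 and −0.41 to 0.06) and did not pass, and Parp10 changed by −0.07. Parp2 and Parp8 turned to 0.05 and 0.01, and Parp1 to 0.22 (limma adjusted p = 0.00215). Relative to the median of all genes on that scale, the values were −0.53 for Parp14, −0.41 for Parp9, −0.40 for Dtx3l, −0.17 for Parp2 and −0.01 for Parp1. Subtracting that median largely undoes the scaling, so these values repeat those of the main scale by construction and are no separate result.

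**Figure D3:**
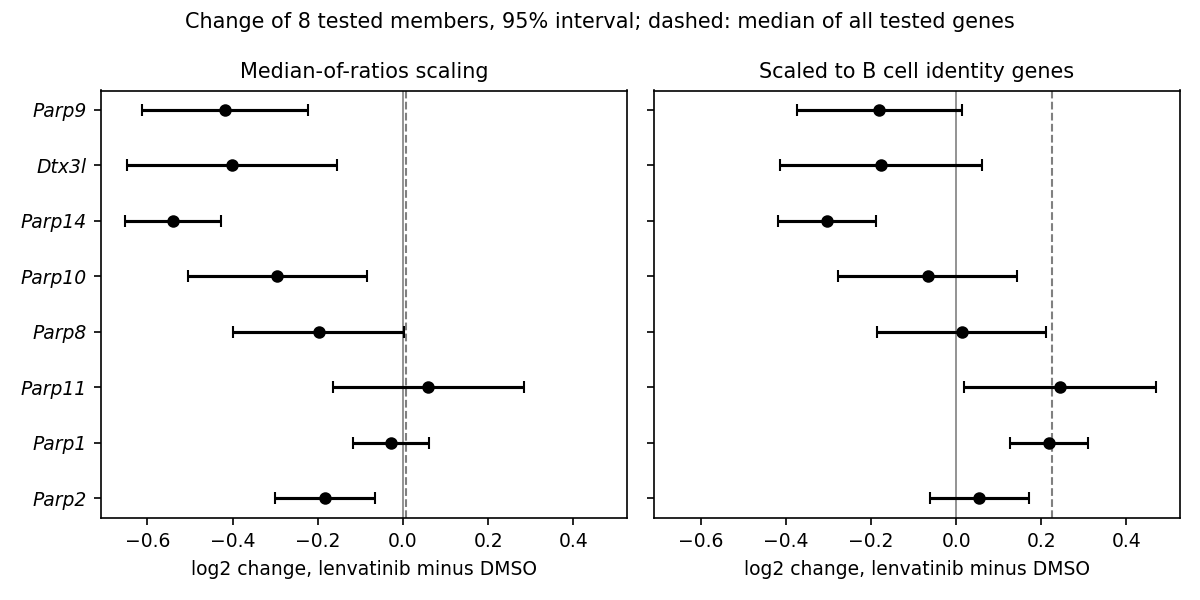
Log2 change of 8 tested members, lenvatinib minus DMSO, with 95% intervals from limma, under the main scaling (left) and scaled to B cell identity genes (right). The dashed line is the median of all tested genes, 0.01 on the left and 0.23 on the right. The interval of Parp14 lies below 0 in both panels, those of Parp9 and Dtx3l only on the left, and the points of Parp1, Parp2 and Parp8 lie below 0 on the left and above 0 on the right.

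Of 8 other listed PARP genes 7 were tested, 0 passed the limma test in either direction, and their median log2 change was −0.14, with 4 of the 7 lower without overlap between the groups, as were 18.2 percent of all tested genes. In this list 3 genes had an unadjusted p below 0.05, and 2 passed in limma-voom. Tiparp, a dioxin-inducible PARP, measured 30.4 ± 1.30 in DMSO and 27.4 ± 1.07 in lenvatinib libraries (limma adjusted p = 0.083). Zc3hav1, the antiviral zinc finger protein that binds viral RNA and lacks PARP activity, measured 58.7 ± 0.401 and 56.3 ± 1.38 (limma adjusted p = 0.302). The tankyrases Tnks and Tnks2 measured 6.44 ± 0.176 and 37.9 ± 1.42 in DMSO, and 5.51 ± 0.185 and 34.2 ± 1.51 in lenvatinib libraries. The median of this list became 0.10 when scaled to B cell identity genes, with 1 gene, Zc3hav1, passing as higher, so its direction depended on the scaling.

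Genes for the removal of ADP-ribose and for the repair partners of Parp1 held no called gene under the main scaling, with 0 at an unadjusted p below 0.05 and 0 in limma-voom. Scaled to B cell identity genes, where 49.4 percent of all tested genes passed as higher, 2 and 3 of them passed as higher and the medians were 0.24 and 0.20. Of 6 tested genes for its removal 0 passed, with a median of 0.02, among them Parg, the hydrolase that degrades chains, at 8.23 ± 0.511 and 7.34 ± 0.530. Of 9 tested partners of Parp1 0 passed, with a median of −0.03, and Hpf1, which directs Parp1 to serine residues, stood at 14.0 ± 0.399 and 14.4 ± 0.685. Among 11 tested genes of NAD synthesis and use 1 passed, Nampt, the rate-limiting enzyme of NAD salvage, which fell from 82.4 ± 0.356 to 72.7 ± 2.75 (log2 change −0.18, limma adjusted p = 0.0102), a change of 0.07 when scaled to B cell identity genes, where 6 other genes of the list passed as higher.

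Of the 4 other Deltex genes 1 rose and 1 fell, and 2 passed as higher and 0 as lower when scaled to B cell identity genes. Dtx4 rose from 3.34 ± 0.269 to 6.21 ± 0.0284 (log2 change 0.73, limma adjusted p = 0.000366). Dtx1, a Deltex gene of the Notch pathway, fell from 50.8 ± 1.69 to 44.4 ± 0.575 (log2 change −0.19, limma adjusted p = 0.012), and its change was 0.05 when scaled to B cell identity genes. Dtx2, at 5.60 ± 0.257 and 5.63 ± 0.442, and Dtx3, at 10.5 ± 1.15 and 12.6 ± 1.18, did not pass under the main scaling. Dtx3 passed as higher when scaled to B cell identity genes (log2 change 0.47, limma adjusted p = 0.00326). In limma-voom 3 of the 4 passed.

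Upstream of the interferon-linked members, 6 of 12 genes from receptor to transcription factor passed as lower and 1 as higher, with a median of −0.15. Scaled to B cell identity genes, 4 passed as lower and 3 as higher and the median was 0.09. Jak1, a receptor kinase named here after its values were seen, turned from −0.12 (limma adjusted p = 0.02) to 0.13 (limma adjusted p = 0.00653) between the scales. Stat2 fell from 22.7 ± 0.740 to 14.1 ± 0.422 (log2 change −0.65, limma adjusted p = 5.17e-05) and Irf9 from 50.1 ± 2.26 to 36.8 ± 1.22 (log2 change −0.43, limma adjusted p = 0.000302). Irf7, which amplifies the type I response, fell from 86.6 ± 2.62 to 36.7 ± 1.51 (log2 change −1.22, limma adjusted p = 9.97e-07). The gene that rose was Ifngr1, a chain of the interferon gamma receptor, from 86.4 ± 3.94 to 154 ± 12.0 (log2 change 0.82, limma adjusted p = 1.81e-05). In the wider interferon response list 24 of 26 tested genes passed as lower and 1 as higher, with a median of −0.73, and 23 as lower and 1 as higher when scaled to B cell identity genes. Ifi27l2a fell from 233.4 ± 21.0 to 96.9 ± 0.520 (log2 change −1.26), the antiviral Ifit3 from 13.01 ± 0.794 to 3.97 ± 0.550 (−1.50), and Oas2, a sensor of double-stranded RNA, from 18.2 ± 0.865 to 5.43 ± 0.906 (−1.59). Gbp2, a guanylate-binding protein, rose from 6.21 ± 0.891 to 8.77 ± 0.134 (log2 change 0.45, limma adjusted p = 0.0115). Ifih1, a sensor of viral RNA, did not pass, at 1.94 ± 0.463 and 1.36 ± 0.0407. The called interferon-linked members, at −0.54 to −0.40, lay near Irf9 and below the size of the list median.

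**Figure D4:**
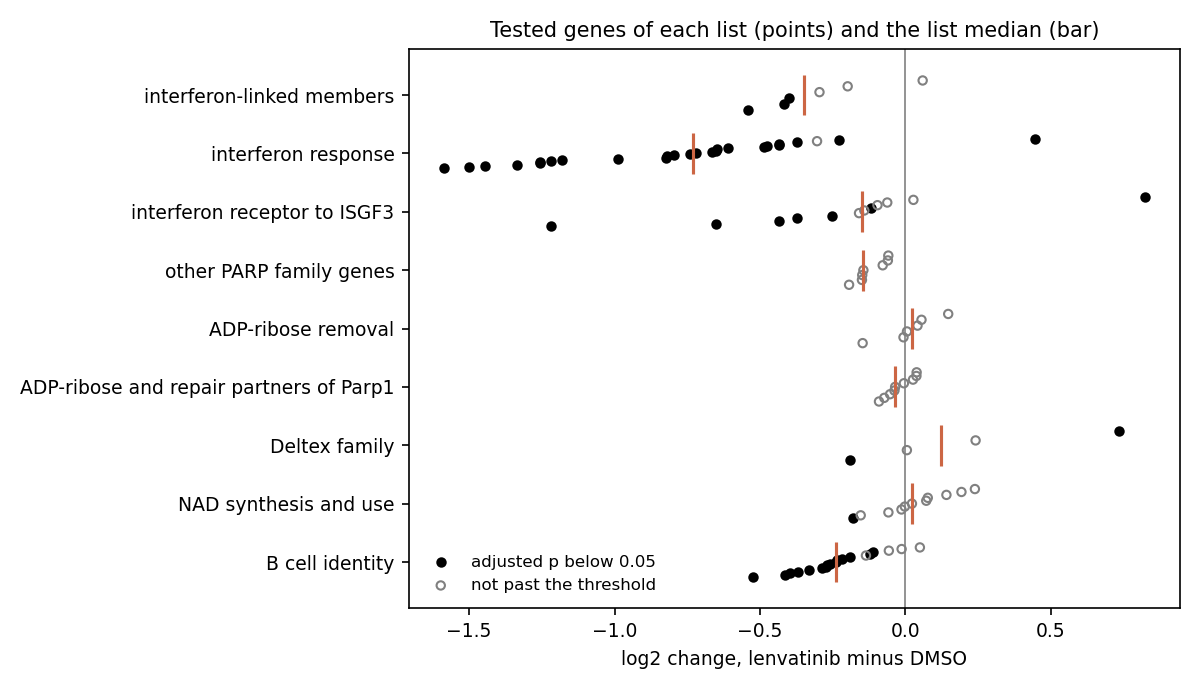
Log2 change, lenvatinib minus DMSO under the main scaling, of the tested genes in 9 lists. Filled points passed the limma test, open points did not, and the bar is the list median. The interferon-linked members have a median of −0.35, between −0.73 for the interferon response and −0.24 for B cell identity genes, and the lists for ADP-ribose removal and Parp1 partners hold no filled point.

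Likeness of pattern was measured as the Euclidean distance between log2 profiles over the 6 libraries, each centred on its mean, against 9344 other named genes. The genes nearest to Parp14 were Phf11d at a distance of 0.0512, Arl5b at 0.0609 and Ralgps2 at 0.0682, the last of which is in the B cell identity list. Phf11d was near the filter, at 1.41 ± 0.0706 in DMSO and 0.675 ± 0.0243 in lenvatinib libraries. The 1 added before the log understates its fall, so its likeness to Parp14 holds on this scale only. Those nearest to Parp9 were Trim21, an antibody receptor in the cytosol and ubiquitin ligase, at 0.133, Gdap10 at 0.158 and Utp14b at 0.159. Those nearest to Dtx3l were Zbed3 at 0.116, Rassf6 at 0.123 and Fignl1 at 0.148. Parp9 and Dtx3l were 0.474 apart, with 1819 genes nearer to Parp9 than Dtx3l was. Parp9 and Parp14 were 0.278 apart, with 152 genes nearer to Parp9. This describes 6 libraries, in which the treatment difference dominates each called profile. Parp9 and Dtx3l differed by only −0.017 in that log2 change, so their distance came mostly from deviations of single libraries within the groups.

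Parp14, Dtx3l and Parp9 follow each other directly among the protein-coding genes of mouse chromosome 16 in RefSeq's GRCm38.p6, with 0 such genes between them. Of the 5 protein-coding genes on each side, 5 of 10 were tested and 0 passed the limma test, against 18.7 percent of all tested genes. With so few tested, this does not set the neighbours apart from other genes. Among those tested, 1 had an unadjusted p below 0.05 and 0 passed in limma-voom. The symbols Sema5b, Ccdc58 and Csta1 were not found among the values. The neighbour on the Parp9 side, Kpna1, an importin, stood at 47.2 ± 1.26 in DMSO and 44.9 ± 0.950 in lenvatinib libraries (log2 change −0.07, limma adjusted p = 0.273). Fam162a, further out on that side, stood at 15.9 ± 3.4 and 19.9 ± 0.778 (log2 change 0.33, limma adjusted p = 0.114). Kpna1 was lower and Fam162a higher without overlap between the groups, as were 1808 and 1882 of all 9937 tested genes. On the Parp14 side Hspbap1 was below the filter at 0.704 ± 0.0497 and 0.644 ± 0.097, and Slc49a4 stood at 1.7 ± 0.251 and 1.7 ± 0.512.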

How the data were processed

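The authors deposited FPKM values per gene symbol with 1 column for each of the 6 libraries, and the labels name the column of each library. HTSeq and genome build GRCm39 are named in the submitters' processing notes. Aligner, annotation, tool versions and strand setting: not given in the sources used here. FPKM were divided by median-of-ratios factors (0.992 to 1.009). The 9937 genes that reached a scaled FPKM of 1 in 3 or more libraries were fitted as log2(scaled FPKM + 1) on treatment alone in limma 3.58.1 (R 4.3.3), with trend and robust moderation, two-sided, and Benjamini-Hochberg adjustment over all tested genes at 0.05. A fold on this scale understates changes of low genes. Whole reads were recovered from the FPKM steps for 19715 of 19715 genes with a value, to a tolerance of 1e-05 of a read (wider for large counts), from library totals found on 13 mitochondrial genes of annotated length, and served for depth and limma-voom. The fit and the read recovery were tested on simulated data.

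The members and lists were chosen with earlier results of these data known. Named genes were the 9 members, up to 4 called genes of each pathway list by p, any gene of lists of at most 10, and the 3 nearest profiles of Parp9, Dtx3l and Parp14, without predicted genes. Gbp2 and Ifih1, the exceptions in the interferon response list, fall outside this rule and, like Jak1, were named after their values were seen. Chromosomal neighbours and the 2 searched motifs were chosen after values were seen. Promoter windows are RefSeq's on GRCm38.p6, another build than the authors'. Alternatives were other pseudocounts, filters, scalings, moderation, a replicate term, limma-voom and leaving out each library.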

Additional observations from a re-analysis of the deposited data

How the results depend on the processing

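Parp14 kept its direction and call in 17 of 17 alternatives. Parp9 did so in 16, Dtx3l in 9 and Parp2 in 6, and the alternatives that ended those calls are given beside each gene, apart from the replicate block. The number of interferon-linked members called lower, 3 in the main fit, ranged from 1 on the B cell scale to 5 in limma-voom on recovered reads. It fell to 2 with no filter and without trend and robust moderation. Leaving out DMSO replicate 1, DMSO replicate 3 or lenvatinib replicate 1 also gave 2. It rose to 4 under quantile normalization, under FPKM sum scaling, and with a mean of at least 5 required. The number of all genes called was 5094 on the B cell scale and 2487 in limma-voom, against 1854. Its lowest value was 1236, without lenvatinib replicate 2. The B cell scale raised the median change of all tested genes by 0.22, and on it Parp1 changed by 0.22, Parp2 by 0.054 and Parp8 by 0.013. The difference between Parp9 and Dtx3l changed sign with a pseudocount of 0.1 (0.0021) and ranged from −0.15 to 0.094 when single libraries were left out. The shift of Parp12 against Parp1 ranged from −0.12 to 0.11 in the same way, and the cause was not tested.

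Replicate numbers were not shown to pair the libraries: deviations of same-numbered libraries correlated at −0.007, 0.006 and −0.005 across genes. With the replicate block 1542 genes and 3 interferon-linked members were called (limma). Those 3 were Parp9, Parp10 and Parp14, with adjusted p-values of 0.0136, 0.0441 and 0.00144, while Dtx3l (0.0638) and Parp2 (0.0726) did not pass. Parp12 had at most 126 reads in a library, and its spread between replicates exceeded that from counting.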
